A study of Solanum lycopersicum with 9 samples.

Results

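In tomato leaves 5 genes of starch breakdown were followed, 1 listed as glucan water dikinase (Solyc05g005020) and 4 listed as beta-amylases (Solyc09g091030, Solyc08g007130, Solyc08g077530 and Solyc07g052690). They were chosen by identifier, with earlier results of these data known, and all 5 were among the 23195 genes of the count table. The enzyme names come from the list used for the selection, because the count table gives identifiers alone and 0 of its identifiers matched the reference gene table. By the naming convention of tomato identifiers, the genes lie on chromosomes 5, 9, 8, 8 and 7 in the order given. Leaf RNA was sequenced from wild-type plants of the tomato cultivar M82 (Solanum lycopersicum) in 3 groups of 3 libraries, described in the series' design text as biological replicates. Control plants kept all leaves, uncovered. In the defoliation group all leaves but the measured one were cut off. In the shading group the youngest fully expanded leaf stayed uncovered and aluminium foil was put over every other leaf. All plants were potted as seedlings 4 weeks old and grown in a greenhouse, and leaves were removed or covered 1 week after flowering had begun. The labels give the same light period and the same leaf position, leaf 4 to 5 from the top, for all libraries. A number 48 without a unit stands in the labels of all treated libraries and of no control library, so what it marks cannot be told apart from the treatments.

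Leaves store part of the carbon fixed by day as starch granules in the chloroplast and break them down at night. Glucan water dikinase adds phosphate groups to the glucan chains at the granule surface, which loosens their packing. Beta-amylases then cut maltose from the chain ends, and the maltose leaves the chloroplast to feed sucrose synthesis. In Arabidopsis thaliana, plants without glucan water dikinase accumulate excess starch, and some beta-amylase proteins of that species have little or no catalytic activity. The sources used here do not say which form of beta-amylase each of the 4 tomato genes encodes.

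Total counts per library lay between 17617138 and 31012772. The shallowest was shading replicate 3, in which 1657 genes had no counts, where other libraries had 334 to 711 such genes. Levels are given in CPM, counts scaled to library size with TMM factors, which are not corrected for gene length, so levels are compared between groups and not between genes. Leaf mesophyll is the labelled cell type. Mesophyll and other cell type markers were not checked, since no identifier of the table could be tied to a symbol. In leaf RNA, fewer cells of a type and less RNA per cell cannot be told apart. All 5 genes passed the filter on low counts, with 504 to 30009 counts per library.

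One beta-amylase, Solyc09g091030.3, stood lower than control after both treatments, and a second, Solyc08g007130.3, was lower under shading. The level of Solyc09g091030.3 fell to 49.2% of control after defoliation and to 54.5% under shading. Solyc08g007130.3 fell to 46.3% of control under shading. Glucan water dikinase and the other beta-amylases did not pass the test against control. Of the 5 genes, 0 rose and 1 fell after defoliation, where 34.3% of the 20480 genes tested were called (18.9% higher and 15.4% lower). Under shading 0 rose and 2 fell, against 30.2% of tested genes called (16.0% higher and 14.2% lower). Without shading replicate 1 the count under shading was 4, with Solyc07g052690.3 higher and Solyc08g077530.3 lower in addition. That fit called 2520 genes higher and 1971 lower of 20821 tested. Without defoliation replicate 1 the count after defoliation was 2, where 3276 genes were called higher and 2209 lower of 20860 tested. Between shading and defoliation 0 of the 5 genes were called, where the background was 0.0146% (edgeR quasi-likelihood test, adjusted p below 0.05). At an unadjusted p below 0.05 edgeR gave 2 of the 5 genes in that last comparison and 16.6% of all genes, and DESeq2 called 2 of the 5 after adjustment, where it called 4.98% of all genes. The median log2 fold change of the 5 genes was -0.23 after defoliation and -0.33 under shading, beside -0.02 and -0.02 for all tested genes. With 5 genes, the counts against control of 1 after defoliation and 2 under shading lie close to the background shares of those comparisons. Both comparisons with control used the same 3 control libraries.

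**Figure D1:**
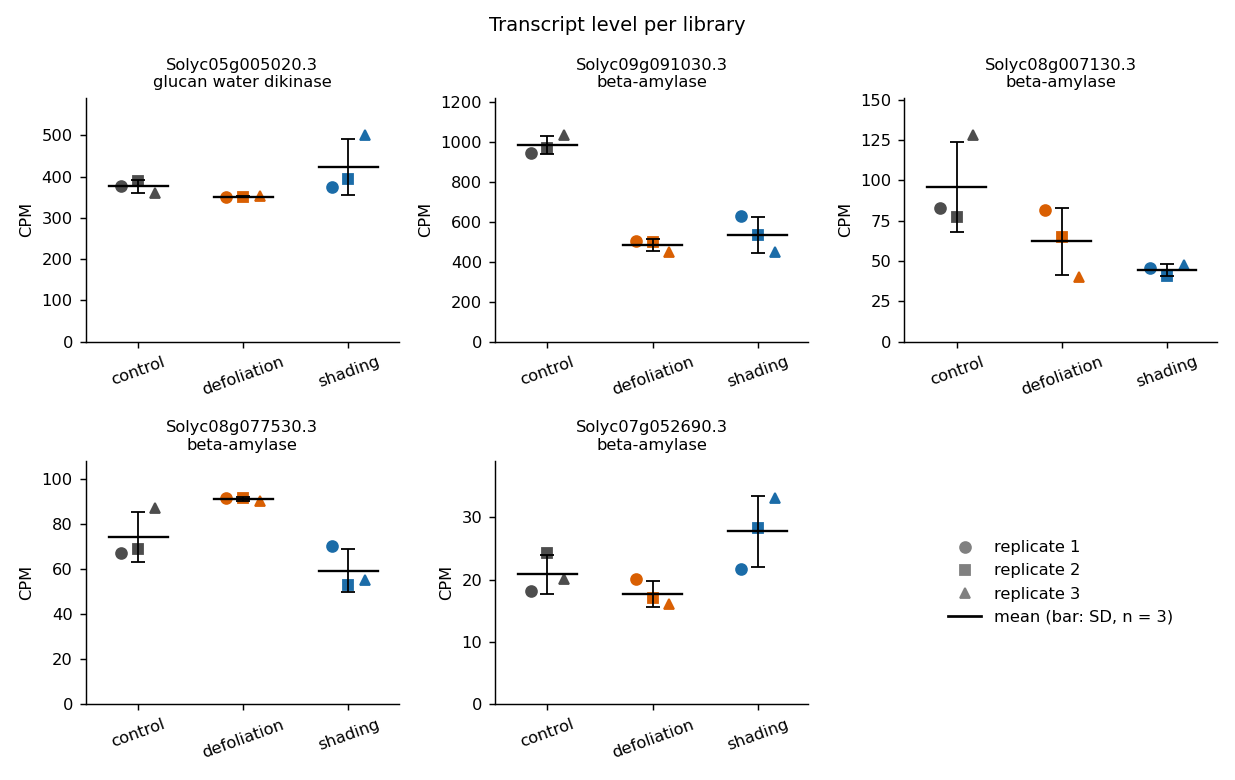
Level of each gene in CPM (vertical axis, from 0) in the control, defoliation and shading libraries; points are libraries, horizontal lines means and bars SD (n = 3). The 6 treated libraries of Solyc09g091030.3 lie between 448 and 628 CPM, all below the control libraries at 947 to 1034 CPM, while Solyc05g005020.3 stays between 350 and 501 CPM in all 9.

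Solyc05g005020.3, the gene listed as glucan water dikinase, acts first in this order of steps. Control replicates 1 to 3 held 378, 391 and 361 CPM, defoliation libraries 350, 351 and 352 CPM, and shading libraries 375, 395 and 501 CPM. The defoliation libraries all lay below the controls by a small margin, the shading libraries overlapped the controls, and shading replicate 3 was the highest of the 9. The mean level was 377 ± 15.0 CPM in control leaves, 351 ± 1.07 with other leaves removed and 424 ± 67.5 with other leaves shaded (SD, n = 3). The coefficient of variation of the defoliation libraries, 0.303%, was smaller than the 0.972% that counting error alone gives at this depth.

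Glucan water dikinase did not pass in any comparison. Its log2 fold change was -0.10 after defoliation (95% interval -0.39 to 0.19, edgeR adjusted p = 0.591) and 0.17 under shading (-0.12 to 0.46, edgeR adjusted p = 0.355). Between shading and defoliation it was 0.27 (-0.02 to 0.56, edgeR adjusted p = 0.336), although all 3 shading libraries lay above all 3 defoliation libraries. These intervals allow a level from 0.762 to 1.14 times control after defoliation and from 0.919 to 1.38 times control under shading. Without shading replicate 3, the shallowest library, the log2 fold change of shading against control was 0.04. In order of level, shading, control and defoliation leaves therefore could not be separated beyond their spread.

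The gene was steady across the study compared with most. The SD of its log2 CPM over the 9 libraries was 0.161, against a median of 0.38 over all tested genes, and 8.97% of tested genes had a lower SD. Among the 1000 genes nearest to it in mean level, 9.3% had a lower SD. For the SD within groups, pooled over the groups, this share was 24.5%. The corresponding SD of the beta-amylases was 0.5 for Solyc09g091030.3, 0.575 for Solyc08g007130.3, 0.312 for Solyc08g077530.3 and 0.342 for Solyc07g052690.3. For Solyc08g007130.3, 86.2% of the 1000 genes nearest in level had a lower SD, and 92.1% had a lower SD within groups. For the SD over all 9 libraries this share was 71.5% for Solyc09g091030.3, 56.7% for Solyc08g077530.3 and 64.4% for Solyc07g052690.3.

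**Figure D2:**
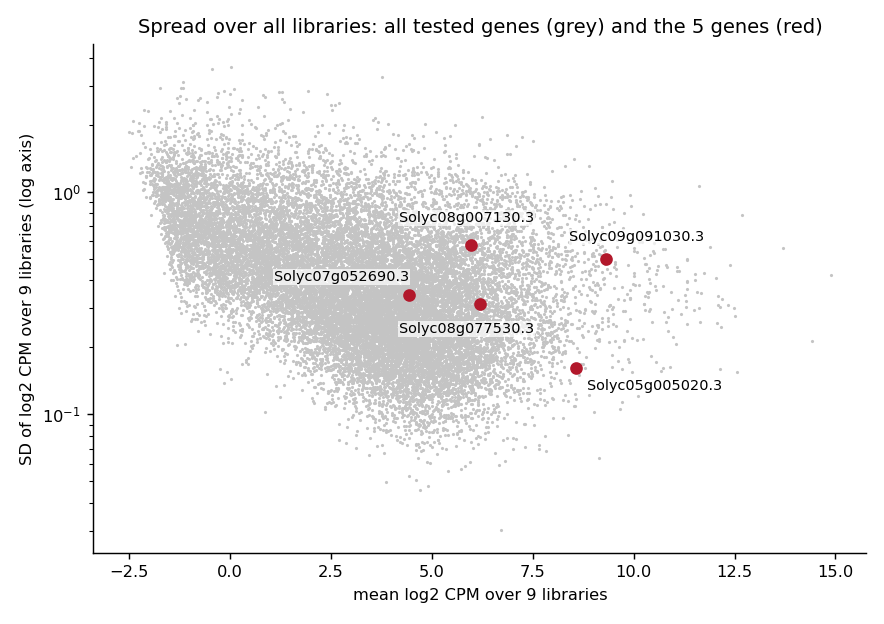
Mean log2 CPM over the 9 libraries (horizontal axis) and SD of log2 CPM over the same libraries (vertical, log axis) for all 20480 tested genes (grey) and the 5 starch breakdown genes (red). Solyc05g005020.3, at 0.161, lies low for its level, with 9.3% of the 1000 genes nearest in level lower still. The red points of the beta-amylases lie between 0.312 and 0.575.

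The genes most like Solyc05g005020.3 in log2 CPM over the 9 libraries were Solyc01g095300.3 (Pearson r = 0.975) and Solyc02g066950.3 (r = 0.955), given as a description over libraries that share their groups. The mean level of Solyc01g095300.3 was 48.4 ± 4.16 CPM in control leaves, against 42.7 ± 1.09 for defoliation and 58.2 ± 12.8 for shading (SD, n = 3). That of Solyc02g066950.3 was 46.5 ± 4.68 CPM, against 44.0 ± 2.92 and 70.9 ± 22, and it was called higher under shading (log2 fold change 0.61, edgeR adjusted p = 0.0359). Over the 8 libraries without shading replicate 3 the coefficients were 0.899 and 0.797.

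Solyc09g091030.3 had the most counts of the 4 beta-amylases in every library. Control libraries held 947, 967 and 1034 CPM, defoliation libraries 504, 497 and 450 CPM, and shading libraries 628, 532 and 448 CPM. Every treated library lay below every control library by a wide margin, and the treated groups overlapped each other. The control mean of 983 ± 45.7 CPM compared with 484 ± 29.4 for defoliation and 536 ± 90.3 for shading (SD, n = 3).

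The decrease of Solyc09g091030.3 passed in both comparisons with control. The log2 fold change was -1.02 ± 0.14 (SE) after defoliation (95% interval -1.34 to -0.71, edgeR adjusted p = 0.000767) and -0.88 ± 0.14 (SE) under shading (-1.19 to -0.56, edgeR adjusted p = 0.00183). After defoliation 17.9% of tested genes had a larger absolute log2 fold change, and under shading 21% did. Shading and defoliation differed by 0.15 (95% interval -0.16 to 0.46, edgeR adjusted p = 0.631), which allows a level under shading from 0.892 to 1.38 times that after defoliation. Both decreases were called under all 18 alternatives, and the smallest decreases among these were -0.97 after defoliation and -0.76 under shading.

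Solyc08g007130.3 had the highest SD of log2 CPM within groups of the 5 genes when pooled over the groups (0.384), although in the shading group alone its coefficient of variation, 8.11%, was the lowest of the 5. Control libraries held 82.7, 77.1 and 128 CPM, defoliation libraries 81.7, 64.7 and 40.2 CPM, and shading libraries 45.4, 40.5 and 47.5 CPM. The shading libraries lay close together and below all controls, whereas the defoliation libraries spread from the lower control values down to the shading level. The control mean was 96.0 ± 28.0 CPM, the defoliation mean 62.2 ± 20.9 and the shading mean 44.4 ± 3.6 (SD, n = 3).

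Under shading the decrease of Solyc08g007130.3 passed, with a log2 fold change of -1.11 ± 0.26 (SE, 95% interval -1.70 to -0.52, edgeR adjusted p = 0.0117). It was called under all 18 alternatives, with log2 fold changes of -1.22 to -0.85. After defoliation the log2 fold change of -0.63 ± 0.26 (SE, 95% interval -1.21 to -0.04) did not pass (edgeR adjusted p = 0.0902). It passed without defoliation replicate 1, the highest defoliation library, at -0.87 (edgeR adjusted p = 0.038), and over all alternatives the adjusted p ranged from 0.038 to 0.298. The direct difference between shading and defoliation was -0.49 (95% interval -1.07 to 0.10, edgeR adjusted p = 0.377), so a call in one treatment and not in the other is not a difference between them.

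**Figure D3:**
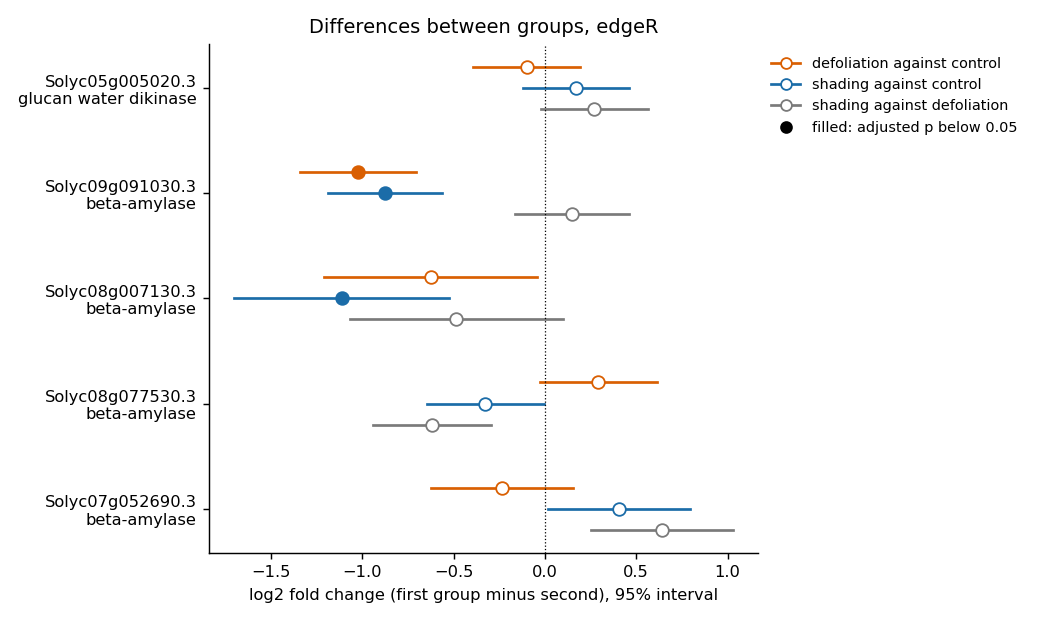
Log2 fold change of each gene (horizontal axis, first-named group minus second) with its 95% interval, for the 3 comparisons; filled circles passed an edgeR adjusted p of 0.05. The filled circles are those of Solyc09g091030.3 in both comparisons with control, at -1.02 and -0.88, and of Solyc08g007130.3 under shading, at -1.11.

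For each of the other beta-amylases the mean lay above control in one treatment and below it in the other, but none of these differences from control passed. For Solyc08g077530.3 the control libraries held 67.3, 68.8 and 87.2 CPM, the defoliation libraries 91.7, 91.6 and 90.2 CPM, and the shading libraries 70.2, 52.9 and 55.0 CPM. Its defoliation libraries all lay above the controls, narrowly above control replicate 3, and its shading libraries overlapped the controls but lay below all defoliation libraries. Its mean was 74.4 ± 11.1 CPM in control, 91.1 ± 0.867 in defoliation and 59.4 ± 9.43 in shading libraries (SD, n = 3). As for glucan water dikinase, the spread of the defoliation libraries (coefficient of variation 0.951%) was below the counting error of 1.91%.

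Neither comparison of Solyc08g077530.3 with control passed, at log2 fold changes of 0.29 (95% interval -0.03 to 0.61, edgeR adjusted p = 0.143) after defoliation and -0.33 (-0.65 to -0.01, edgeR adjusted p = 0.115) under shading. Without shading replicate 1, the highest shading library, the shading value was -0.46 and was called (edgeR adjusted p = 0.0441). Of the 18 alternatives only this 1 called it. Over all of them the shading value ranged from -0.46 to -0.20 and its adjusted p from 0.0441 to 0.372. Shading against defoliation gave -0.62 ± 0.14 (SE, 95% interval -0.94 to -0.30), which did not pass in edgeR (adjusted p = 0.122). DESeq2 called it, at -0.60 (adjusted p = 0.00743), and over the 18 alternatives the adjusted p ranged from 0.00743 to 0.38.

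Solyc07g052690.3, the gene with the fewest counts of the 5, showed the reverse order. Its level was 18.2, 24.3 and 20.1 CPM in control, 20.1, 17.1 and 16.0 in defoliation and 21.8, 28.3 and 33.1 in shading libraries. Both treated groups overlapped the controls, but all shading libraries lay above all defoliation libraries. These gave means of 20.9 ± 3.13, 17.7 ± 2.1 and 27.7 ± 5.7 CPM in that order (SD, n = 3).

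Against control the log2 fold changes of Solyc07g052690.3 were -0.23 (95% interval -0.62 to 0.15, edgeR adjusted p = 0.329) after defoliation and 0.41 (0.02 to 0.80, edgeR adjusted p = 0.105) under shading. Without shading replicate 1, the lowest shading library, the shading value was 0.56 and was called (edgeR adjusted p = 0.0394). Of the 18 alternatives only this 1 called it. Over all of them the shading value ranged from 0.27 to 0.56 and its adjusted p from 0.0394 to 0.292. Shading against defoliation gave 0.64 ± 0.18 (SE, 95% interval 0.25 to 1.03), not called by edgeR (adjusted p = 0.14) and called by DESeq2 at 0.66 (adjusted p = 0.0335). For shading against defoliation the adjusted p ranged from 0.0335 to 0.411 over the alternatives. Shading replicate 3, the shallowest library, was the highest of all 9 for this gene as it was for glucan water dikinase, and the lowest for Solyc09g091030.3. Without it, shading against defoliation was 0.50 (edgeR adjusted p = 0.411). The part of depth in these values was not tested.

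Libraries of the compared groups did not overlap in CPM for 3 of the 5 genes after defoliation, 2 under shading and 3 between the treatments. Over all tested genes these shares were 51.9%, 46.3% and 21.8%. The genes without overlap between the treatments were Solyc05g005020.3, Solyc08g077530.3 and Solyc07g052690.3.

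The 4 beta-amylases together stood lower in all treated libraries than in the controls. Their summed level was 1115, 1138 and 1270 CPM in control, 697, 671 and 596 in defoliation and 765, 653 and 583 in shading libraries. The treated groups overlapped each other. Most of the difference came from Solyc09g091030.3. Without it, the sum of the other 3 genes was 168, 170 and 235 CPM in control, 194, 173 and 146 in defoliation and 137, 122 and 136 in shading libraries. The defoliation libraries then overlapped the controls, and the shading libraries lay below both other groups (this sum was added after seeing the data). The mean sum of all 4 genes after defoliation was 55.8% of control and that under shading 56.8%, each with an exact permutation p of 0.1 (two-sided), the smallest that 3 against 3 libraries allow, and 0.15 after adjustment over the 3 comparisons.

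The share of each gene in the summed beta-amylase counts of its own library needs no scaling between libraries. The shares are not corrected for length, and since they add up to the whole they are not independent of each other. Solyc09g091030.3 made up 84.9%, 85.0% and 81.5% of these counts in the control libraries, 72.2%, 74.2% and 75.5% after defoliation and 82.1%, 81.4% and 76.8% under shading. Its share after defoliation lay below that in every control and every shading library, while the shading libraries overlapped the controls. Solyc08g077530.3 made up 6.03%, 6.05% and 6.87% in control, 13.2%, 13.7% and 15.1% after defoliation and 9.17%, 8.09% and 9.43% under shading. For this gene the 3 groups did not overlap, with defoliation highest and control lowest. After defoliation its level was 1.22 times control and was not called (edgeR adjusted p = 0.143). The summed level of the 4 genes was 55.8% of control there, so the lower sum also raised the share. Under shading the order of shares ran against that of levels, since the mean level of Solyc08g077530.3 was 59.4 CPM, below the 74.4 CPM of control, while the sum that it is divided by was also lower.

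Solyc07g052690.3 averaged 1.78 ± 0.308% in control, 2.71 ± 0.166% after defoliation and 4.28 ± 1.42% under shading (SD, n = 3), with both treated groups above all controls. After defoliation its mean level was 17.7 CPM, below the 20.9 CPM of control, while the sum that it is divided by was also lower. Solyc08g007130.3 averaged 8.09 ± 1.76%, 9.37 ± 2.5% and 6.75 ± 1.21%, and its groups overlapped. Of the 12 comparisons of shares, the exact permutation p was 0.1, the smallest possible, in 7, and 0.171 after adjustment over the 12, so none could pass in this design.

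**Figure D4:**
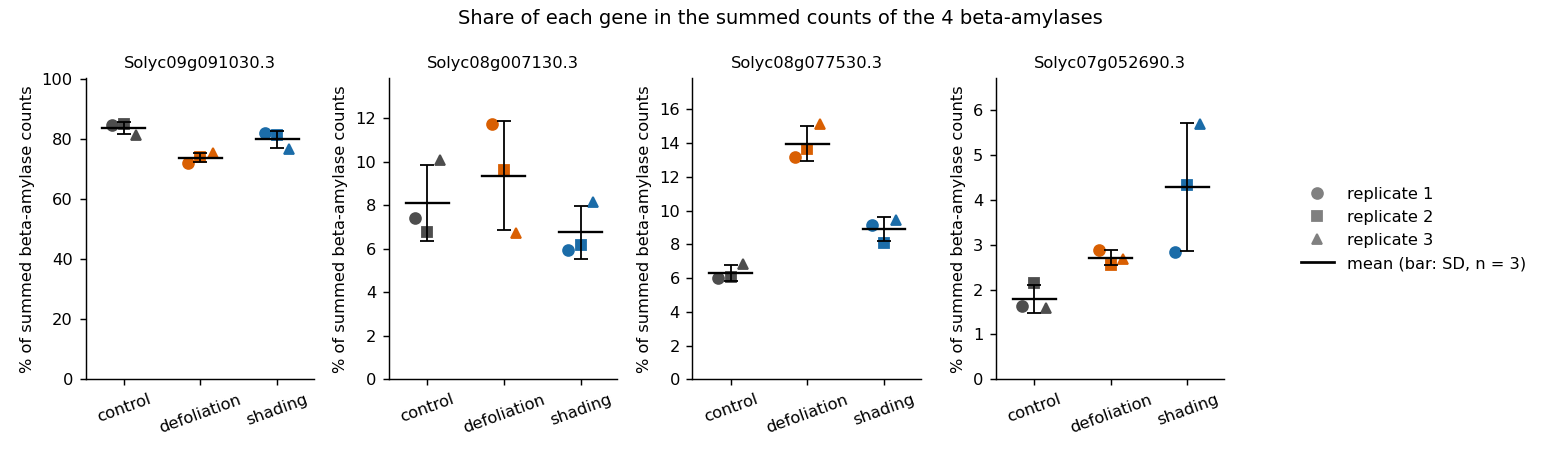
Percent of the summed counts of the 4 beta-amylases that came from each gene (vertical axes, from 0, scaled per gene) in each library; lines are means and bars SD (n = 3). The share of Solyc08g077530.3 averages 6.32% in control, 13.97% in defoliation and 8.90% in shading libraries, and that of Solyc09g091030.3 is lowest after defoliation, at 74.0%.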

How the data were processed

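The authors deposited expected counts per gene from RSEM, as whole numbers. Per the submitters' processing notes, Trim Galore, STAR, RSEM and DESeq2 were used; the sources used here give no versions, genome build or annotation. Per the labels' protocols, libraries came from a TruSeq kit without strand information, so overlapping genes cannot be told apart, and RSEM divides reads between similar genes by estimation, which makes counts of near-identical copies uncertain.

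CPM used TMM effective library sizes. Of 23195 genes, 20480 passed filterByExpr. The test was edgeR 4.0.16 quasi-likelihood (R 4.3.3, robust, legacy method) on all 9 libraries with a coefficient per group, Benjamini-Hochberg adjustment over all tested genes and a threshold of 0.05. The method was run on simulated counts with 200 changed genes per comparison and a spread set by mean level alone. Far more genes were called against control here, so that run does not show how the method performs on these data. Standard errors are the log2 fold change divided by the root of F, and 95% intervals use the fitted degrees of freedom. Log2 CPM had a prior count of 2. The edgeR p-values set a difference between groups against the spread between libraries. The exact permutation p-values rank it among all ways to divide the libraries of the compared groups. Replicates of each group differed by more than sampling noise.

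The named genes were all 5 members and the 2 genes with the highest Pearson correlation with Solyc05g005020. Members and lists were chosen with earlier results of these data known. Lists of other starch breakdown genes and cell type markers were not used, since 0 identifiers matched the RefSeq table (assembly SLM_r2.1). Alternatives were DESeq2 1.42.0, limma-voom (limma 3.58.1), other scalings and filters, the newer quasi-likelihood method, pairwise fits, a replicate block and leaving out each library. Ratios to Solyc05g005020 were added after seeing the data.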

Additional observations from a re-analysis of the deposited data

Results flagged for a closer look

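Solyc08g077530.3 was flagged because all 3 defoliation libraries lay above the control mean and all 3 shading libraries below it. The difference between the treatments was a log2 fold change of -0.62 (shading against defoliation), lower in 3 of 3 shading libraries, and did not pass in edgeR (adjusted p = 0.122). Solyc07g052690.3 was flagged for the opposite arrangement, with all shading libraries above the control mean and all defoliation libraries below it, and its direct log2 fold change of 0.64, higher in 3 of 3 shading libraries, did not pass either (edgeR adjusted p = 0.14). The control mean is common to both treatments, and the share of all genes with such arrangements is not given here.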

How the results depend on the processing

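Over 18 alternatives for each of 15 log2 fold changes (270 in all), none changed sign and 265 stayed on their side of the threshold. The exceptions passed where the main test did not: Solyc08g077530.3 and Solyc07g052690.3 in shading against defoliation with DESeq2, Solyc08g007130.3 after defoliation without defoliation replicate 1, and Solyc08g077530.3 and Solyc07g052690.3 under shading without shading replicate 1. The number of the 5 genes called in shading against defoliation was 2 with DESeq2 and 0 under every other alternative. With single libraries left out, the number called ranged from 1 to 2 after defoliation, from 2 to 4 under shading and from 0 to 0 between the treatments. The 4 came without shading replicate 1, where 2520 genes were called higher and 1971 lower of 20821 tested. The 2 after defoliation came without defoliation replicate 1, where 3276 genes were called higher and 2209 lower of 20860 tested. The cause was not tested. With the replicate block the numbers of the 5 genes called were 1, 2 and 0, as in the fit without it. No consistent pairing by replicate number was seen, since 2 of 9 same-numbered correlations exceeded 0.1 (range -0.187 to 0.141). Those 2, 0.141 and 0.136, were both between shading and defoliation, where differently numbered libraries reached at most 0.0205. Between defoliation and control, differently numbered libraries reached 0.192, above every same-numbered value. With 3 libraries per group, such correlations cannot exclude a pairing.

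Over all genes, DESeq2 called 585 higher and 434 lower in shading against defoliation, where edgeR called 2 and 1, and the replicate block gave 0 and 0. Genes called lower numbered 2077 after defoliation without defoliation replicate 3 (3152 with all) and 1922 under shading without control replicate 3 (2899 with all). Scaling left the median of all genes between -0.07 and 0.01. The ratio of Solyc09g091030.3 to Solyc05g005020.3 in shading against defoliation was -0.12 (log2) and ranged from -0.33 without shading replicate 1 to 0.13 without shading replicate 3.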

Other observations

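Counts of each beta-amylase divided by those of Solyc05g005020.3 in the same library need no scaling between libraries. This measure was chosen after seeing the data, and neither gene is corrected for length. For Solyc09g091030.3 the ratio was 2.504, 2.477 and 2.867 in the control libraries, 1.44, 1.42 and 1.28 after defoliation and 1.67, 1.35 and 0.894 under shading. All treated libraries lay below all controls, with log2 differences of -0.92 after defoliation and -1.05 under shading (exact permutation p = 0.1 each, two-sided, the smallest possible, and 0.188 after adjustment over 15 comparisons). In level the order was the reverse, with log2 fold changes of -1.02 and -0.88. The mean of the divisor itself was 377 CPM in control, 351 in defoliation and 424 in shading libraries, differences that did not pass. For Solyc08g007130.3 the ratio was 0.219, 0.197 and 0.355 in control, 0.233, 0.184 and 0.114 after defoliation and 0.121, 0.102 and 0.0948 under shading, where the shading libraries lay below all controls and the defoliation libraries overlapped them.

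For Solyc08g077530.3 the ratio was 0.178, 0.176 and 0.242 in control, 0.262, 0.261 and 0.256 after defoliation and 0.187, 0.134 and 0.110 under shading. Its defoliation libraries lay above all others. For Solyc07g052690.3 the mean ratio was 0.0553 ± 0.00707 in control, 0.0505 ± 0.00612 after defoliation and 0.0652 ± 0.00680 under shading (SD, n = 3), with both treated groups overlapping the controls. The summed ratio of all 4 beta-amylases lay between 2.91 and 3.52 in the control libraries, between 1.69 and 1.99 after defoliation and between 1.16 and 2.04 under shading.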
